A study of Mus musculus with 69 samples.

Results

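The effect of time since vehicle instillation was described in lungs of mice that received no nanomaterial, by setting the lungs collected on day 28 against those collected on day 1. The arrays were chosen by their titles, which mark 5 vehicle controls of day 28 and 5 of day 1, so that 10 of the 69 arrays of the series were compared, each with the lung RNA of 1 mouse. Female C57BL/6 mice arrived at an age of 5 to 7 weeks, acclimatised for 1 to 3 weeks, and were instilled once into the trachea under anaesthesia. The vehicle was 2% serum in water, and the lungs were taken 24 h or 28 d later, so that the day 28 mice were also older and their age cannot be told apart from the time since instillation. RNA from a small frozen section of each lung carried Cy5 and shared the array with a Universal Mouse Reference in Cy3, and dyes were never swapped. The other 59 arrays held lungs given 18, 54 or 162 µg of the TiO2 materials NRCWE-025 or NRCWE-030 on the same days, of which the 20 arrays at 18 µg were used to ask whether an effect of day was also seen in mice other than the controls. The vehicle was not compared with an uninstilled lung here.

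Liquid placed in the trachea reaches the alveoli, where macrophages reside. The epithelium there can answer with acute phase proteins such as the serum amyloids and with chemokines that draw in neutrophils. Heat shock proteins are chaperones that refold damaged proteins and are switched on by the factor HSF1, whereas interferon-stimulated genes encode antiviral proteins and GTPases that are switched on by STAT and IRF factors. Many lung genes also follow the time of day through the circadian clock, in which Arntl and Dbp peak at opposite times.

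Levels are given as log2 of lung over reference after loess within each array, and a difference is the mean of day 28 minus the mean of day 1 on that log2 scale. A gene is said to be called where limma's p, adjusted by Benjamini and Hochberg's method, was under 0.05. Between 54.4% and 71.3% of the spots of a vehicle array were well above background in Cy5, with a mean of 61.5% ± 4.22 (SD, n = 5) on day 1 and 64.9% ± 5.42 (SD, n = 5) on day 28, and 0 spots were saturated. Correlations between vehicle arrays across genes ranged from 0.93 to 0.983, so no array was a copy of another. Each vehicle array lay on its own slide, and no slide held both days. Scan days 3, 4 and 5 each held 1 vehicle array of each day, namely replicates 2, 3 and 4 of both, and differences within those scan days are given as 3 values beside the main results. Markers of alveolar type 2 cells had a mean level of 4.57 ± 0.19 (SD, n = 5) over reference on day 1 and 4.48 ± 0.13 (SD, n = 5) on day 28, so the defining markers of the labelled tissue were present. The sample numbers of the control mice in the labels (349 to 353 and 373 to 377) lay apart from those of the treated mice (up to 108). Nothing in the labels states whether the mice of a day were handled in separate batches.

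Over 18656 genes, limma called 0 between the days, which is 0% of those tested, with a smallest adjusted p of 0.0792. At an unadjusted p under 0.05 there were 1698 genes (9.1%), of which 842 were higher on day 28 (4.51%) and 856 lower (4.59%), where 932.8 are expected by chance. The count of 1698 became 1343 to 1960 when single arrays were left out. With scan day as a fixed block it was 1088 on the vehicle arrays and 2202 in a fit of all 14 groups. The 5 arrays of one day lay entirely above those of the other for 176 genes higher on day 28 (0.943%) and 177 lower (0.949%). The median difference over all genes was -0.01, and 47.5% of genes were higher on day 28. The median standard error of a difference was 0.102, and the median distance from a difference to either end of its 95% interval was 0.221, so that differences well under that size could not be resolved with 5 arrays a day. Only 10 genes differed by 1 or more on the log2 scale, 6 higher and 4 lower, and 4 of the 10 were at an unadjusted p under 0.05.

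Since no gene passed, the 11 genes with an adjusted p under 0.1 are described by their values, and they were chosen after their values were seen. Among those higher on day 28 were Vegfc, a growth factor of lymphatic vessels, Adamts9, a secreted protease that cleaves proteoglycans, Cacybp, a binding partner of calcyclin and of a ubiquitin ligase, and the interferon-inducible GTPases Gbp6 and Gbp3. Among those lower were Pla1a, a phospholipase that acts on phosphatidylserine, Col4a4, a chain of basement membrane collagen, Slc13a4, a sulfate transporter, Hkdc1, a hexokinase-like enzyme, Mst1r, the receptor of macrophage-stimulating protein, and the serine protease Tmprss4.

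Pla1a had levels of -0.08, -0.47, -0.31, -0.43 and -0.42 on day 1 and of -1.52, -1.43, -1.23, -0.85 and -1.42 on day 28. The groups did not overlap, and day 28 replicate 4 was nearest to day 1. The difference was -0.94 ± 0.13 (SE, n = 5 per day), with a 95% interval of -1.22 to -0.67, or 1.93-fold lower on day 28, and limma's adjusted p was 0.0792. Within scan days 3, 4 and 5 the differences of Pla1a were -0.96, -0.91 and -0.42, all below 0. Slc13a4 had levels of 2.95, 2.90, 2.83, 2.52 and 2.70 on day 1 and 1.88, 2.11, 2.30, 1.85 and 2.15 on day 28. The groups did not overlap, and the difference was -0.72 ± 0.11 (SE, n = 5 per day), with a limma adjusted p of 0.0898. Col4a4 and Hkdc1 were lower by differences of -0.60 and -0.56, Mst1r by -0.51 and Tmprss4 by -0.71, each without overlap between the days and each with a limma adjusted p of 0.0898.

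Vegfc had levels of 0.42, 0.47, 0.51, 0.43 and 0.43 on day 1, a range narrower than that of day 28, where the arrays read 1.13, 1.40, 1.25, 0.84 and 1.15. All day 28 arrays lay above all day 1 arrays, and the difference was 0.70 ± 0.10 (SE, n = 5 per day), or 1.63-fold higher, with a limma adjusted p of 0.0792. Within the 3 shared scan days the differences were 0.93, 0.75 and 0.41. Adamts9 read 0.08, 0.56, 0.58, 0.33 and 0.43 on day 1 and 1.21, 1.31, 1.27, 0.87 and 1.04 on day 28, again without overlap, and differed by 0.74 ± 0.11 (SE, n = 5 per day) with a 95% interval of 0.49 to 0.99. Within scan days the values of Adamts9 were 0.75, 0.69 and 0.54. Of its 2 probes, the one well above background on all 10 arrays differed by 1.20 and the other, above background on 2 arrays, by 0.29. Cacybp differed by 0.69 ± 0.11 (SE, n = 5 per day), and Gbp6 by 1.06 ± 0.17 (SE, n = 5 per day), the largest difference of the 11 genes.

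**Figure D1:**
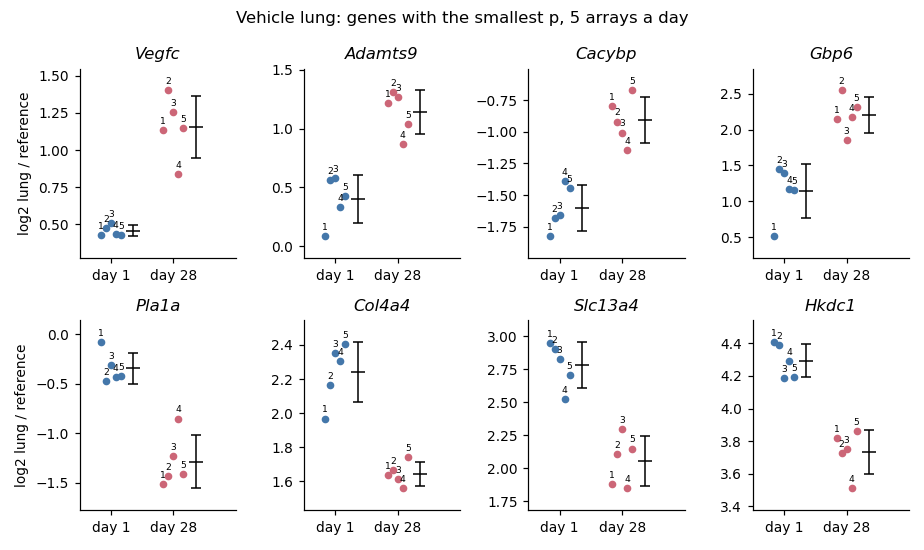
Levels of 8 genes with the smallest p in the vehicle comparison, as log2 lung over reference on the vertical axis for each array (points, numbered by replicate), with the mean and SD of 5 arrays at the side. The day 28 points of Vegfc, Adamts9, Cacybp and Gbp6 lie above all day 1 points, and those of Pla1a, Col4a4, Slc13a4 and Hkdc1 lie below all of them.

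The spread can also be estimated from all 69 arrays, in 1 limma fit of the 14 groups. That fit called 7 genes for the vehicle comparison (0.0375%), 4 of them higher on day 28 and 3 lower. Those that rose were Adamts9 (adjusted p = 1.37e-05), Gvin1, a large interferon-inducible GTPase (adjusted p = 0.00773), Crem, a regulator of cAMP-responsive genes (adjusted p = 0.0142), and Vegfc (adjusted p = 0.0417). Those that fell were Pla1a (adjusted p = 0.00133), Hbp1, a transcription repressor that restrains the cell cycle (adjusted p = 0.00206), and Myom3, a protein of the muscle M-band (adjusted p = 0.0429). The differences are those of the vehicle arrays alone, 0.99 for Gvin1, 0.71 for Crem, -0.43 for Hbp1 and -0.64 for Myom3. The vehicle arrays of the days did not overlap for Gvin1, Hbp1 or Myom3. Crem read -0.21, 0.22, 0.31, 0.27 and 0.54 on day 1 and 1.14, 1.40, 1.18, 0.46 and 0.48 on day 28, where replicates 1 to 3 were high and replicates 4 and 5 lay within the day 1 range. This fit takes the spread over arrays from all groups, treated lungs included.

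Genes of the heat shock list had the highest median difference of the 17 pathway lists, 0.40 against -0.01 over all genes. Of its 17 members, all measured, 14 were higher on day 28. At an unadjusted p under 0.05 there were 8 higher (against 4.51% of all genes) and 1 lower (against 4.59%), and 0 were called. Those 8 were Hsph1, Hspa8, Hspa1b, Chordc1, Hspd1, Dnajb1, Bag3 and Dnaja1, which are chaperones of the cytosol or mitochondria and their partners, and the 1 lower was Cirbp, an RNA-binding protein induced by cold. Leaving out single arrays gave 7 to 10 members higher and 1 or 2 lower, and scan day as a fixed block gave 5 higher and 2 lower. The members were chosen with earlier results of these data known, and the count is a description.

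Hsph1, a chaperone that acts as an exchange factor for Hsp70, read -1.57, -0.70, -1.21, -0.83 and -0.89 on day 1 and 0.07, -0.11, -0.14, -0.49 and -0.19 on day 28. The groups did not overlap, and the difference was 0.87 ± 0.16 (SE, n = 5 per day), with a limma adjusted p of 0.168. Chordc1, a partner of Hsp90, read -0.20, -0.17, -0.04, -0.05 and -0.22 on day 1 and 0.65, 0.50, 0.49, 0.13 and 0.19 on day 28. Its groups did not overlap either, replicates 1 to 3 of day 28 were the highest, and its difference was 0.53 ± 0.10 (SE, n = 5 per day) (limma adjusted p = 0.195). Hspa1b, an inducible Hsp70, read -0.22, -0.28, -0.24, -0.20 and -0.35 on day 1 and 0.78, 0.48, 0.52, -0.27 and 0.08 on day 28. Here day 28 replicate 4 lay within the day 1 values, and replicates 1 to 3 lay well above them. Hspa1a, its near-identical copy, whose signal the array may not tell apart from that of Hspa1b, read 1.09, 1.06, 1.36, 1.16 and 1.18 on day 1 and 2.96, 2.34, 2.20, 0.88 and 0.73 on day 28, with replicates 4 and 5 below all day 1 arrays. The difference of Hspa1a, 0.65 ± 0.36 (SE, n = 5 per day), was not at an unadjusted p under 0.05. Hspa8, the constitutive Hsc70, read -2.63, -2.02, -1.60, -1.39 and -1.77 on day 1 and -1.41, -0.94, -1.20, -1.36 and -1.13 on day 28. Its difference was 0.67, the groups overlapped, and day 1 replicate 1 was the lowest of the 10 arrays. Cirbp read 1.51, 1.11, 1.04, 1.37 and 1.51 on day 1 and 0.77, 0.62, 0.64, 0.97 and 1.28 on day 28, with replicates 1 to 3 of day 28 the lowest. Other members differed less, with Hspa5 0.38, Hsp90ab1 0.25, Hsp90aa1 0.14, Fkbp4 0.09, Rbm3 0.02, Hspe1 -0.05 and Hspb1 -0.16. Within scan days 3, 4 and 5, Hsph1 differed by 0.59, 1.07 and 0.33, Chordc1 by 0.67, 0.53 and 0.18 and Hspa1b by 0.77, 0.76 and -0.07.

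The sequences of the promoters are shown for heat shock members that were among those with the smallest p, since the heat shock element that HSF1 binds can be read in them. RefSeq entries of build GRCm38.p6 gave 300 bases around the start of a gene, 250 before it and 50 after, for 13 of the 17 members. The inverted repeats GAANNTTC and TTCNNGAA, each its own reverse complement, were searched on both strands and may overlap each other. GAANNTTC was found in 9 of the 13 promoters, against 7.95% of 27025 promoters of all genes in the table, and TTCNNGAA in 3, against 8.4%. The promoters of Hsph1 (chr5:149636287-149636586, minus strand), Chordc1 (chr9:18292017-18292316, plus strand) and Hspa1b (chr17:34959189-34959488, minus strand) follow, 5′ to 3′ along the gene, with matches in capitals.

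Hsph1: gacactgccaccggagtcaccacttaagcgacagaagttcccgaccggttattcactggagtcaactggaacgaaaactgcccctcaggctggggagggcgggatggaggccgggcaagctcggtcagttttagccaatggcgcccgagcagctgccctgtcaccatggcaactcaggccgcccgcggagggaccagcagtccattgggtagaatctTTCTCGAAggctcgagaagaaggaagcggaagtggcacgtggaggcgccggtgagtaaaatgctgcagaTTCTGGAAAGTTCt
Chordc1: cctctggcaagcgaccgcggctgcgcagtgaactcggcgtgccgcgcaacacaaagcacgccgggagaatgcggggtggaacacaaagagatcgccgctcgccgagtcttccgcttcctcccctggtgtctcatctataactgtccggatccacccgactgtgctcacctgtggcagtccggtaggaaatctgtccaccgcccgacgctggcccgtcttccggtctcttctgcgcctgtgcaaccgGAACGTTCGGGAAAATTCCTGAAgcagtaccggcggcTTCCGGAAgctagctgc
Hspa1b: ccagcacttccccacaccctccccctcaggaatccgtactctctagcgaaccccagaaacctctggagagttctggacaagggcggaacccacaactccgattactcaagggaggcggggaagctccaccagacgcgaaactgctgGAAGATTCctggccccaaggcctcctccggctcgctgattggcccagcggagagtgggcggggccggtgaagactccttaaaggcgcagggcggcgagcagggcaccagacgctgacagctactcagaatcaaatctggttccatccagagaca

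In these windows, the Hsph1 promoter holds 3 matches, that of Chordc1 5 and that of Hspa1b 1, and matches that overlap run together. A match is a description of letters, and binding was not measured. Hsph1 and Chordc1 were the members with the smallest p, but the windows of Hspe1, with 1 match of GAANNTTC and 2 of TTCNNGAA, and of Hspb1, with 2 of GAANNTTC, hold matches too, and these genes differed by -0.05 and -0.16. Neither of these letter strings is in the windows of Hspd1 and Dnajb1, which differed by 0.47 and 0.46. However, the windows of Hspd1 (chr1:55088194-55088493, minus strand) and Hspe1 (chr1:55087898-55088197, plus strand) overlap at their ends. The matches in the Hspe1 window thus lie close to Hspd1 too, and these neighbours are not separate cases.

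**Figure D2:**
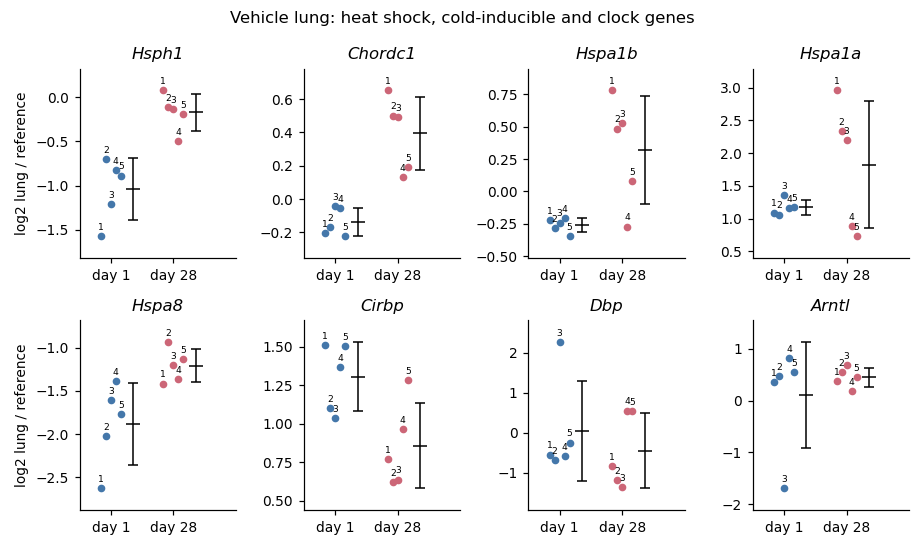
Levels of 6 heat shock or cold-inducible genes and 2 clock genes, as log2 lung over reference, on each vehicle array (points, numbered by replicate), with mean and SD of 5 arrays. For Hspa1b, Hspa1a and Chordc1 the points of day 28 replicates 1, 2 and 3 lie above those of replicates 4 and 5, and for Dbp and Arntl the point of day 1 replicate 3 lies far from the other day 1 points.

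Clock genes varied between the arrays of a day. Dbp, a clock output factor, read -0.55, -0.69, 2.26, -0.60 and -0.25 on day 1 and -0.84, -1.18, -1.36, 0.55 and 0.55 on day 28, so that replicate 3 of day 1 was high and replicates 1 to 3 of day 28 lay below replicates 4 and 5. Arntl, the core activator, read 0.36, 0.47, -1.70, 0.82 and 0.56 on day 1 and 0.37, 0.55, 0.68, 0.19 and 0.46 on day 28, and replicate 3 of day 1 was low. Per1, a repressor of the clock, was highest on the same array, at 1.49, and Per2 differed by 0.06 between the days. Of the 19 clock members, 10 were higher on day 28 and 9 lower, with a median of 0.03. At an unadjusted p under 0.05, 0 were higher and 1 lower, against 4.51% and 4.59% of all genes. Without day 1 replicate 3, 3 members were higher and 1 lower at that p. The hour of collection is not given in the sources used here, and its part in the other results was not tested.

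Immediate early genes and glucocorticoid-responsive genes, which are induced within minutes to hours of handling or stress hormones, were set beside the clock. Of 21 immediate early genes, 17 were higher on day 28 with a median of 0.15, and 6 were higher at an unadjusted p under 0.05 (4.51% of all genes), namely Jun, Ier2, Atf3, Nr4a1, Nr4a2 and Klf4. The first 3 of that list differed by Fos -0.12, Egr1 0.08 and Jun 0.24. The count was 2 without day 1 replicate 1 or without day 1 replicate 2, 7 without day 28 replicate 4, and 2 in the 14-group fit (4.51% of all genes in that fit too). Klf4 read 1.53, 1.61, 2.72, 1.26 and 0.91 on day 1 and 2.80, 2.83, 3.04, 1.66 and 1.66 on day 28, where replicates 1 to 3 were high, and also day 1 replicate 3. Of 18 measured glucocorticoid-responsive genes, 12 were higher, with a median of 0.25, and 2 were higher (Errfi1 and Cebpb) and 3 lower (Mt1, Mt2 and Lcn2) at an unadjusted p under 0.05, against 4.51% and 4.59% of all genes. The first measured members of the list differed by Fkbp5 -0.03 and Tsc22d3 0.35. Mt2, a metallothionein that binds zinc and copper, ran from -2.93 to -2.42 over the day 1 arrays and from -3.28 to -2.95 over the day 28 arrays. The groups of Mt2 did not overlap, and the difference was -0.48 ± 0.10 (SE, n = 5 per day), with a limma adjusted p of 0.275. Without day 1 replicate 3, the glucocorticoid list had 7 members higher and 2 lower.

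Interferon-stimulated genes were mostly higher on day 28. Of 24 measured members, 22 were higher, with a median of 0.26, and 11 were higher and 0 lower at an unadjusted p under 0.05 (4.51% of all genes were higher), with 0 called. The 11 included Gbp3, Rtp4, a chaperone of receptors, Bst2, a protein that tethers viruses to the cell, Oasl2, Zbp1, a nucleic acid sensor, Ifit1 and Isg15, a ubiquitin-like protein. The first 3 of the list differed by Ifit1 0.37, Isg15 0.57 and Irf7 0.15. In the 14-group fit only 3 members passed that p, against 4.51% of all genes higher in that fit, and without day 28 replicate 2 it was 4 of 24 in the vehicle fit, whereas without day 1 replicate 2 it was 13. Bst2 read -0.32, 0.33, 0.36, 0.31 and 0.42 on day 1 and 0.55, 0.93, 0.64, 0.94 and 1.34 on day 28, without overlap and with day 1 replicate 1 the lowest of all arrays. Isg15 read -2.24, -0.83, -1.35, -1.23 and -0.68 on day 1 and -0.69, -0.33, -0.92, -0.55 and -0.96 on day 28, and the groups overlapped.

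The GTPases of the Gbp, Irgm, Gvin and Tgtp families, which act on vacuoles of intracellular pathogens, were looked at as 1 family of 14 measured genes because Gbp6 and Gbp3 were among the 11 genes above. The family was thus chosen after its values were seen, and its counts are a description. In it 13 genes were higher on day 28, 12 of them at an unadjusted p under 0.05 (4.51% of all genes), 6 without overlap (0.943% of all genes), and the median difference was 0.50. Gbp6 read 0.51, 1.45, 1.39, 1.17 and 1.16 on day 1 and 2.14, 2.54, 1.85, 2.17 and 2.31 on day 28, where the lowest day 28 value was above the highest day 1 value and day 1 replicate 1 was far below the others. Gbp6 was 2.09-fold higher on day 28, with a 95% interval of 0.69 to 1.44 for the log2 difference and a limma adjusted p of 0.0898. Gvin1 read 1.32, 2.13, 1.85, 1.75 and 2.04 on day 1 and 2.79, 3.15, 2.77, 3.00 and 2.32 on day 28, again without overlap. Gbp3 read 1.65, 1.73, 1.80, 1.61 and 1.85 on day 1 and 2.20, 2.36, 2.05, 2.38 and 2.21 on day 28, and differed by 0.51 ± 0.08 (SE, n = 5 per day). The exceptions were Gbp5 (-0.08) and Iigp1 (0.05), the former lower and the latter near 0. Members of this family share sequence, and a probe may read more than 1 of them.

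Promoters of 2 members are shown because the core of the interferon-stimulated response element, taken here as GAAA followed after any 2 bases by GAAA again, can be read in them. Of the 14 genes, 8 had a RefSeq promoter of GRCm38.p6, and the GAAA repeat on either strand was in 8 of them, against 3.49% of promoters in the table. The second motif, TTCNNNGAA, which is its own reverse complement, was in 5 of the 8, against 8.47%. The windows of Gbp3 (chr3:142559794-142560093, plus strand) and Irgm1 (chr11:48871371-48871670, minus strand) are given 5′ to 3′ with matches of either motif in capitals.

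Gbp3: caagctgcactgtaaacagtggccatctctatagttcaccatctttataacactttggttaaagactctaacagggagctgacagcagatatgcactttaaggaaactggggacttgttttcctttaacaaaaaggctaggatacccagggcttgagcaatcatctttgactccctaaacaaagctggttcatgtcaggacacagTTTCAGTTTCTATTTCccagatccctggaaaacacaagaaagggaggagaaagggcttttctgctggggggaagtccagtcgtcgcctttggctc
Irgm1: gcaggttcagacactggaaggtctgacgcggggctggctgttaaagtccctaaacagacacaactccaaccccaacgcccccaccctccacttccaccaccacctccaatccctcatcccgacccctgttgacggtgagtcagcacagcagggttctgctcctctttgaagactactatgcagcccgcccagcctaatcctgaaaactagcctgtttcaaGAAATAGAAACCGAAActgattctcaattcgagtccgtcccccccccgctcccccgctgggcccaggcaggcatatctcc

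Each window holds 2 matches of the GAAA repeat, counting both strands, and 0 of TTCNNNGAA. Here too a match is a description of letters, and binding was not measured. The window of Gbp5, which differed by -0.08, holds 1 match of the GAAA repeat and 2 of TTCNNNGAA. Irgm1, which marks vacuoles for autophagy, differed by 0.55 ± 0.12 (SE, n = 5 per day) and did not overlap between the days.

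Acute phase genes were lower on day 28 where they were at an unadjusted p under 0.05. Of 21 measured members 14 were lower, with a median of -0.09, and 8 were lower and 0 higher at that p, against 4.59% of all genes lower. They were Saa1, Saa2 and Saa3, which encode serum amyloid A, Lcn2, an iron-binding lipocalin, the protease inhibitors Serpina3n, Serpina3m and Timp1, and the complement protein C3. Saa3 read -2.68, -1.91, -2.55, -3.25 and -2.69 on day 1 and -3.50, -3.31, -3.55, -2.89 and -3.22 on day 28, and the groups overlapped because day 1 replicate 4 was low. Serpina3n read 2.62, 2.75, 2.44, 2.38 and 1.89 on day 1 and 1.71, 2.03, 2.12, 1.65 and 1.72 on day 28, with day 1 replicate 5 as the overlapping array. The first 3 of the list differed by Saa3 -0.68, Saa1 -0.34 and Lcn2 -0.38. In the 14-group fit 1 member passed, and without day 1 replicate 2 it was 4 lower and 1 higher.

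Of 19 chemokine and neutrophil genes, 13 were higher on day 28 with a median of 0.10, and 4 were higher at an unadjusted p under 0.05 (4.51% of all genes), namely Il1b, Mmp9, Csf3r and Cxcr2, which are genes of neutrophils and inflammation. The first 3 of the list differed by Cxcl1 -0.37, S100a8 0.79 and Ccl2 -0.36. S100a8, an abundant neutrophil protein, read 3.37, 2.86, 2.26, 3.08 and 3.00 on day 1 and 4.00, 4.70, 4.65, 2.41 and 2.75 on day 28, where replicates 1 to 3 were above all day 1 arrays and replicates 4 and 5 below 4 of the 5. Il1b read 2.28, 1.90, 1.57, 1.93 and 1.85 on day 1 and 2.76, 3.18, 3.21, 1.81 and 2.87 on day 28, and its difference was 0.86 ± 0.23 (SE, n = 5 per day), with a limma adjusted p of 0.381. Day 28 replicates 1 to 3 were also those with high Hspa1a, Klf4 and Crem and with low Dbp. Without day 28 replicate 4 the count was 8, and without any 1 of day 28 replicates 1 to 3 it was 2. Whether fewer cells of a type or less RNA per cell lies behind a lower level cannot be told apart in whole lung.

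**Figure D3:**
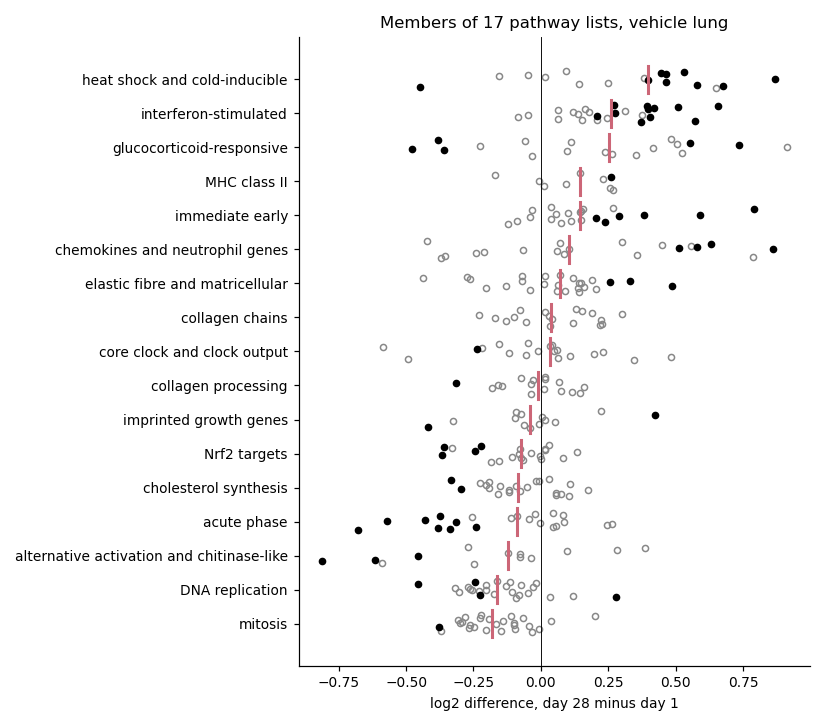
Differences of the members of 17 pathway lists on the log2 scale, day 28 minus day 1, with filled points for an unadjusted limma p under 0.05, open points for the others and a bar for the list median. The medians run from -0.18 for mitosis to 0.40 for heat shock genes, and no member was called after adjustment.

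Genes of mitosis were lower on day 28 in 24 of 26 measured members, with a median of -0.18, although 1 member, Plk1, a mitotic kinase, was at an unadjusted p under 0.05. The mean level of the list was -2.24, -2.34, -2.93, -2.99 and -2.38 on day 1 and -2.65, -2.72, -3.06, -2.71 and -2.58 on day 28. Day 1 replicates 3 and 4 thus lay below every day 28 array except replicate 3. Of the 26 members, 4 had no probe well above background on any vehicle array. Plk1 read -1.71, -1.75, -1.99, -1.90 and -1.59 on day 1 and -2.10, -2.14, -2.15, -2.38 and -2.06 on day 28, without overlap. The first 3 members differed by Mki67 -0.03, Top2a -0.37 and Ccnb1 -0.15. Without day 1 replicate 3 or without day 1 replicate 4 the count was 4. Of 25 DNA replication genes, 22 were lower, with a median of -0.16, and 3 were lower, Mcm5 and Chaf1b among them, and 1 higher, Pcna, at that p (4.59% and 4.51% of all genes). The lower count was 8 and 6 without day 1 replicates 4 and 3, 2 without day 1 replicate 1 or without day 28 replicate 1 or 4, 1 without day 1 replicate 2 or 5 or without day 28 replicate 3, and 0 with scan day as a fixed block. Mcm2 differed by -0.09 and Pcna, the sliding clamp of DNA polymerase, by 0.28.

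The counts of extracellular matrix genes at an unadjusted p under 0.05 are to be read against 9.1% of all genes. Of 18 collagen chains, 0 were at that p, with a median of 0.04 and Col1a1 0.03, Col3a1 0.22 and Col1a2 0.23. Col4a4, which is not on that list, was the exception among chains described here. In collagen processing the count was 1 of 16, with Bmp1, the protease that trims procollagen, lower by a difference of -0.31, while Serpinh1 differed by -0.04 and P4ha1 by 0.15. Of 25 elastic fibre and matricellular genes, 3 were higher, namely Postn, Mfap4 and Ltbp4, and the first 3 differed by Eln 0.14, Fbn1 0.09 and Tnc 0.06. Postn, periostin, read 3.33, 3.17, 3.37, 3.41 and 3.27 on day 1 and 3.85, 3.59, 3.54, 3.43 and 3.80 on day 28, without overlap. Of the imprinted growth genes, Igf2 differed by -0.04, and 2 of 13 were at that p, with Dlk1 lower (-0.42) and Nnat higher (0.42).

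Among Nrf2 targets, which encode enzymes against oxidants, 4 of 20 were lower at an unadjusted p under 0.05 (4.59% of all genes) and 0 higher, with a median of -0.07. They were Gsta3, Osgin1, Akr1b8 and Aox1, and the first 3 of the list differed by Nqo1 -0.18, Hmox1 -0.15 and Gclc -0.07. Cholesterol synthesis had a median of -0.09, with Dhcr7 (-0.30) and Ebp (-0.33) lower at that p and a difference of 0.06 for Sqle, an enzyme of that pathway. MHC class II genes had a median of 0.15, with H2-Aa 0.27, Cd74 0.26 and Ciita 0.01, and H2-DMb2 was the member higher at that p. In the alternative activation list, 3 of 13 were lower, namely the chitinase-like Chil4 (-0.81) and Chia1 (-0.62) and the chemokine Ccl17 (-0.46), while Retnla differed by -0.25 and Chil3 by -0.59. Chil4 read 6.06, 6.89, 6.41, 6.19 and 5.89 on day 1 and 4.60, 5.24, 5.82, 4.92 and 6.79 on day 28, where replicate 5 was above 4 of the 5 day 1 arrays. Leaving out single arrays gave 1 to 4 lower members of that list, and the log ratio of the scanner software gave 0.

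Markers of cell types were described by the mean level of a list on each array. Alveolar type 2 markers differed by a median of -0.12, with Sftpc 0.10, Sftpb -0.11 and Abca3 -0.08, and type 1 markers by 0.06, with Ager -0.05, Aqp5 0.22 and Pdpn 0.32. Airway secretory markers had a median of 0.02, with Scgb1a1 0.35 and Cyp2f2 0.02, and ciliated markers one of 0.01, with Foxj1 0.03, Tekt1 0.09 and Dnah5 -0.05. The mean level of the airway secretory list ran from 2.52 to 5.50 over the day 1 arrays and from 2.51 to 5.05 over the day 28 arrays, a wider range than that of any alveolar list. Of 13 endothelial markers 6 were higher and 7 lower, with a median of -0.01, and 3 were higher at an unadjusted p under 0.05 (4.51% of all genes), Pecam1, Prx and Apln, with Pecam1 0.35, Cdh5 -0.01 and Kdr -0.06 for the first 3. Without day 28 replicate 3 that count was 1. Apln, the apelin peptide made by tip cells of vessels, read 0.52, 0.76, 0.75, 0.74 and 0.91 on day 1 and 1.52, 1.70, 1.02, 1.02 and 1.38 on day 28, without overlap, and differed by 0.59 ± 0.13 (SE, n = 5 per day).

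Other cell types were described by the same lists. Smooth muscle and pericyte markers had a median of 0.04, with Acta2 0.02, Myh11 -0.11 and Cnn1 -0.03, and fibroblast markers one of 0.20, with Pdgfra 0.05, Tcf21 0.21 and Wnt2 -0.22. In the macrophage and monocyte list Csf1r 0.10 and Adgre1 -0.08 were the first measured members. Of its 17 measured members, 2 were higher (Itgam and Ly6c2) and 1 lower (Trem2) at an unadjusted p under 0.05. Of all genes, 4.51% were higher and 4.59% lower at that p. B lymphocyte markers differed by Cd79a 0.06 and Ms4a1 -0.14, and the plasma cell gene Jchain by 1.03, where day 28 replicate 4 was at -0.07 and the other day 28 arrays between -2.81 and -1.67. T and NK markers differed by Cd3e 0.12, Cd8a -0.31 and Gzma 0.43. Of 17 measured, 1 was higher (Gzmb) and 1 lower (Cd8a) at that p, against the same shares of all genes. The probes of Cd8a did not go the same way. They differed by -0.31, 0.07 and 0.07 and were well above background on 10, 10 and 7 arrays. Mast cell markers differed by Cpa3 0.10, Mcpt4 -0.02 and Cma1 -0.00, and erythroid markers by Hba-a1 -0.09, Alas2 0.15 and Slc4a1 0.30. Of the thymus markers, Rag1 had both probes below the well-above-background mark on all 10 arrays and Dntt had 1 of 3 probes above it on all 10, so no difference is given. The mesothelial markers differed by Msln -0.62, Upk3b -0.26 and Wt1 -0.04, with all 6 mesothelial members lower on day 28. Of these, 1, Krt19 (-0.50), was at an unadjusted p under 0.05, against 4.59% of all genes lower.

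Heart and fat markers varied between the arrays of a day. The mean level of the 17 heart muscle members was 1.84, 4.13, 0.41, 0.30 and 0.34 on the day 1 arrays and 1.77, 1.61, 2.17, 2.73 and 0.95 on the day 28 arrays. Day 1 replicate 2 was the highest of all, and 3 day 1 arrays lay below all day 28 arrays. Fat markers had means of 2.04, 3.77, 1.56, 1.54 and 1.27 on day 1 and of 1.62, 0.99, 1.94, 4.02 and 1.49 on day 28, so that 1 array of each day stood out. Myh6, the alpha heavy chain of cardiac myosin, read 2.41, 4.95, 2.62, 2.42 and 1.90 on day 1 and 3.48, 3.37, 3.83, 4.38 and 2.33 on day 28. Of the heart list 0 members were at an unadjusted p under 0.05, but without day 1 replicate 2 it was 11 of 17, all higher. In that fit 702 of all 18656 genes were higher at that p. The array left out there was the one with the highest heart mean, and members of the list are not independent replicates. The first members of the heart list differed by Myl7 0.96, Myh6 0.62 and Nppa -0.31, those of the fat list by Adipoq 0.31, Cfd 0.17 and Fabp4 -0.08, and those of skeletal muscle by Acta1 -0.35, Myh4 -0.00 and Mylpf -0.07. Of the 11 skeletal muscle members 9 were lower on day 28, with a median of -0.13, and Tnnc2 (-0.33) and Actn3 (-0.34) were lower at an unadjusted p under 0.05, against 4.59% of all genes. That count was 4 without day 1 replicate 3, 3 without day 1 replicate 4, 1 without day 1 replicate 1 or without day 28 replicate 1 or 5, and 0 without day 1 replicate 5, without day 28 replicate 3 or in the 14-group fit. Myom3, described above as lower, is also a muscle gene. The part of these markers in the other results was not tested.

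**Figure D4:**
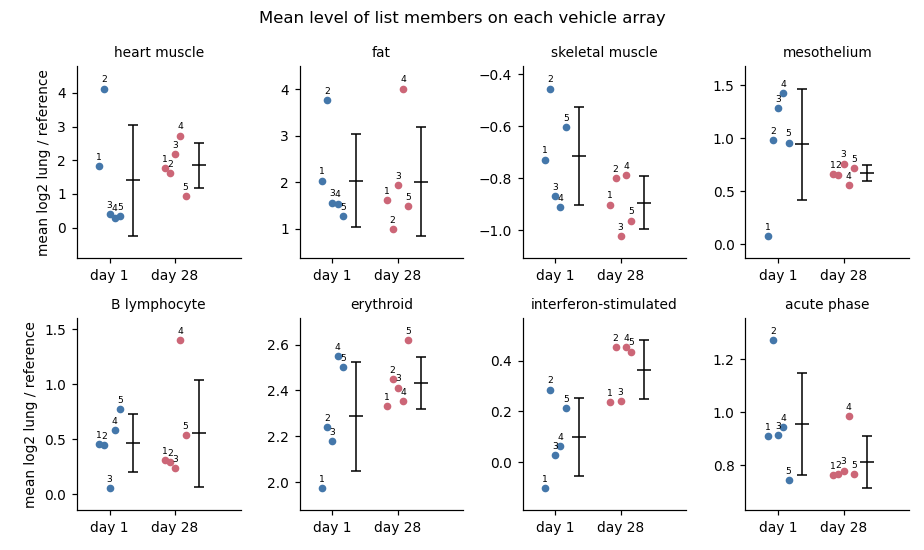
Mean level of the members of 8 lists on each vehicle array, as log2 lung over reference, with points numbered by replicate and the mean and SD of 5 arrays. The heart muscle mean of day 1 replicate 2 (4.13) and the fat mean of day 28 replicate 4 (4.02) stand out, whereas the interferon-stimulated means run from -0.10 to 0.29 on day 1 and from 0.24 to 0.45 on day 28.

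The study's own 10 gene sets, biclusters that came from models of lung disease outside these data, were described in the same way. Their medians ranged from -0.16 in bicluster-1 to 0.07 in bicluster-6, against -0.01 over all genes. Between 0 and 5 of the 14 to 35 measured members were at an unadjusted p under 0.05, against 9.1% of all genes. First members differed by C1qa -0.03 and C3ar1 -0.01 in bicluster-1, Ddias -0.20, Ccna2 -0.01 and Ccnb1 -0.15 in bicluster-2 and Aif1 0.17, Ccl2 -0.36 and Ccl9 0.05 in bicluster-3. In bicluster-4 they were Arid4b 0.13, Atrx -0.02 and Cnot6 0.39, in bicluster-5 Nat8f4 -0.04, Ap1m2 0.02 and Arg1 -0.04 and in bicluster-6 Atm 0.03, Baz1b 0.07 and Bclaf1 -0.09. Bicluster-7 opened with Ccl3 -0.21, Cd200r1 -0.09 and Chodl -0.06, bicluster-8 with C1qb 0.12, Ch25h 0.05 and Clec4a2 -0.14, bicluster-9 with Actc1 -0.18, Cfd 0.17 and Ckm -0.10 and bicluster-10 with Aldh3a1 -0.08, Bmp6 0.14 and Cyp1a1 -0.44. Bicluster-5, with Grb7 and Tmprss4 among its lower members, had 1 of 35 members higher and 4 lower at that p, against 4.51% and 4.59% of all genes.

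The last question was whether a difference between the days was particular to the vehicle mice. The day difference was taken in the same way in mice given 18 µg of each material, which share no array with the controls but 9 of whose 20 arrays lay on a slide with a control. Limma called 0 genes for NRCWE-025 at that dose, with 1631 at an unadjusted p under 0.05, and 0 for NRCWE-030, with 718. By chance 932.8 of the 18656 genes are expected at that p. Leaving out single arrays gave 1232 to 1965 for NRCWE-025 and 539 to 1441 for NRCWE-030. The mean of both day differences was called for 13 genes (0.0697%), and at an unadjusted p under 0.05 it was higher for 829 (4.44%) and lower for 432 (2.32%). Across genes, the vehicle difference and the mean of the 2 differences at 18 µg had a correlation of 0.208. The correlation was 0.112 with NRCWE-025 alone and 0.185 with NRCWE-030 alone, and between the differences of the materials it was -0.0148. Genes are not independent replicates, and these correlations are descriptions. The sign at 18 µg was that of the vehicle for 65.2% of the 1698 genes, against 56.4% of all genes. At 18 µg the mean of both materials had list medians of 0.08 for heat shock and 0.14 for interferon-stimulated genes (vehicle 0.40 and 0.26). Medians were -0.37 for glucocorticoid-responsive, -0.10 for immediate early and -0.05 for acute phase genes (vehicle 0.25, 0.15 and -0.09). At that unadjusted p, 1 heat shock and 6 interferon members were higher and 0 lower. Of the others, 0, 0 and 1 were higher and 9, 5 and 5 lower. No list was tested for a difference from vehicle. Pla1a differed by -0.54 with NRCWE-025 and by -0.75 with NRCWE-030, and Spink5, a serine protease inhibitor, by -0.89 and -0.90, beside -0.94 and -0.87 in vehicle. Both genes were lower on day 28 than on day 1 in all 7 dose-matched pairs, the vehicle pair included.

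The effect of day in vehicle minus that at 18 µg was called for 3 genes by limma (0.0161%). Adamts9 differed by 0.91 ± 0.13 (SE) with an adjusted p of 0.00184, from 0.74 in vehicle against -0.24 and -0.10 at 18 µg. Adamts1, a related protease, differed by 1.08 ± 0.20 (SE) with an adjusted p of 0.0459, from 0.53 in vehicle against -0.65 and -0.45 at 18 µg. Only 1 gene was called with a positive value with scaled arrays, with the probe of highest mean Cy5 signal, and in most fits that left out 1 array. Adamts9 and Adamts1 were thus not both called in those fits. Myom3 differed by -0.95 ± 0.15 (SE) with an adjusted p of 0.0119, from -0.64 in vehicle against 0.18 and 0.44. No gene was called with a negative value, so that Myom3 was not called, with backgrounds as deposited, without background correction, with the deposited values, with scaled arrays, with the scanner's log ratio or without vehicle day 28 replicate 3. Vehicle day 28 had the highest mean of Adamts9 of the 14 groups and vehicle day 1 the lowest, at 1.14 ± 0.18 and 0.40 ± 0.20 (SD, n = 5 each), while the treated groups had means between 0.43 and 0.97. For Vegfc the vehicle groups were again the highest and lowest, at 1.16 ± 0.21 and 0.45 ± 0.04, and treated means ran from 0.53 to 1.15. For Gbp6 the vehicle day 1 mean of 1.14 ± 0.37 was the lowest of the 14 groups, whereas the day 28 mean of 2.20 ± 0.25 was the fourth highest. Adamts9, Vegfc and Gbp6 were picked above for their difference on these same vehicle arrays, so the ranks of their vehicle means are no separate result. Vegfc and Gbp6 were not among the 3 genes called here. Of the heat shock genes, Hspa1b, Chordc1, Hsph1, Hspa8, Bag3, Hspd1 and Dnaja1 had their highest mean of the 14 groups on vehicle day 28. All of them were among the 8 of 17 members picked above for being higher on those same arrays. Their rank is therefore no separate result, and ranks of the other members are not given.

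**Figure D5:**
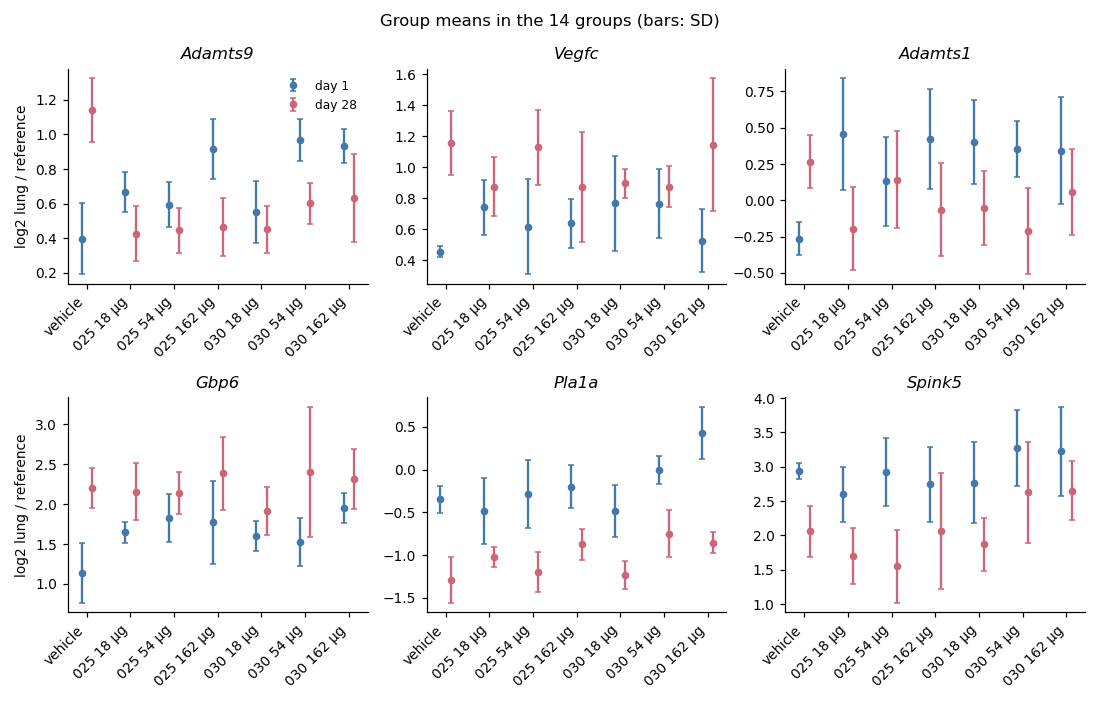
Mean levels of 6 genes in the 14 groups, as log2 lung over reference, with SD of 5 arrays (4 at 162 µg of NRCWE-025 on day 28), blue for day 1 and red for day 28. Adamts9 is highest on vehicle day 28 and lowest on vehicle day 1, whereas Pla1a and Spink5 are lower on day 28 in every pair of groups.

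In the vehicle comparison limma called 0 genes under 7 of the 13 other settings tried with no vehicle array left out, but leaving out day 28 replicate 4 gave 4 calls, leaving out day 1 replicate 1 gave 2, and the fit of all 14 groups with scan day as a fixed block gave 55. The difference of Pla1a, -0.94, ranged from -1.05 to -0.88 when single arrays were left out. Some list medians moved much further, from 0.05 to 1.14 for heart muscle and from -0.58 to 0.23 for fat.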

How the data were processed

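Lung RNA was measured on 2-colour Agilent arrays, of which the 10 vehicle arrays and the 20 arrays at 18 µg enter the comparisons and all 69 enter the 14-group fit. The authors deposited, per the file headers, Feature Extraction files with median spot and local background intensity per colour, a log10 ratio of Cy5 over Cy3, and flags, which are another kind of value deposited as 0 or 1. On every array except 1 array of NRCWE-030 at 18 µg on day 28, the deposited values of the whole series matched the loess-normalised log2 ratios computed without background correction (median slope 0.993, median correlation 0.996 across probes), so their scale was taken as log2 of Cy5 over Cy3.

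Local backgrounds that the scanner software marked as outlying were set to the median of the unmarked ones on that array. Intensities were corrected by normexp with an offset of 50 and normalised by loess within arrays, and control spots and spots with outlier flags were left out. Of 41174 probes, 27479 had a gene symbol (66.7%). Spots of a probe and probes of a symbol were summarised by the median, giving 18656 genes. The vehicle comparison was fitted with limma on 10 arrays, with Benjamini-Hochberg adjustment over all genes at a threshold of 0.05. The steps were tested on simulated data. R 4.3.3, limma 3.58.1, version 1.17.8 of data.table, Python 3.11.15, pandas 2.3.3 and matplotlib 3.10.9 were used. Symbols and promoters came from RefSeq tables of GRCm38.p6, and no coordinate was taken from the array design, which names an older build.

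Of 745 genes on 44 lists, 709 were matched, 9 of them by an older symbol. The genes described are those with a p nearest to the threshold, the first 3 of each list and members at an unadjusted p under 0.05. Some genes on the lists are not reported here. The members and lists were chosen with earlier results of these data known. Alternatives covered background correction, scaling, the scanner's ratio, the deposited table, probe choice, a filter on dim genes, blocks for scan day and slide, a fit of all groups, and leaving out each array. Each array is 1 mouse, and each vehicle array lay on its own slide. The p-values thus measure the spread between mice together with any between slides and scan days.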

Additional observations from a re-analysis of the deposited data

Results flagged for a closer look

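Of 486 groups of 5 values tested, 39 held 1 array far from the other 4, and chance gives about 1 in 20 such groups. On day 1 replicate 1 the level lay apart for Bst2 (-0.32) and Ccar1 (-0.56). The array of day 1 replicate 2 stood apart for Myh6 (4.95), Nppa (4.89), Myh4 (1.13), Adipoq (5.27), Ccl9 (0.17) and Ckm (2.44). For day 1 replicate 3 these were Dnaja1 (0.32), Arntl (-1.70), Dbp (2.26), Per2 (0.98), Ms4a1 (-0.24), Chodl (-0.39), Nr1d2 (2.01) and Hlf (3.10). On day 1 replicate 4 the level lay apart for Oas2 (-0.98). The array of day 1 replicate 5 stood apart for Ifit1 (-1.32). For day 28 replicate 2 these were Ciart (0.0202). On day 28 replicate 3 the level lay apart for Tcf21 (4.91), Dntt (-0.86), Ccna2 (-4.04) and Cry1 (-0.38). The array of day 28 replicate 4 stood apart for Plk1 (-2.38), Cxcl9 (1.31), Wnt2 (3.97), Ms4a1 (2.13), Mcpt4 (1.25), Cma1 (1.98), Fabp4 (5.76), Msln (-1.80), Wt1 (-0.23), Ccl9 (0.29) and Rora (0.72). For day 28 replicate 5 these were Gsta3 (3.35), Ccar1 (-0.43), Pdpn (1.01), Upk3b (1.33) and Tef (0.27). All are levels as log2 lung over reference.

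The effect of day in vehicle minus that at 18 µg passed limma's test of the difference itself for Adamts9 (0.91, adjusted p = 0.00184), Adamts1 (1.08, adjusted p = 0.0459) and Myom3 (-0.95, adjusted p = 0.0119), with 5 arrays in each group and day. The control mice carry sample numbers apart from those of the treated mice, and whether they were handled at another time was not tested.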

How the results depend on the processing

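In the vehicle comparison the count of 0 genes became 3 with local backgrounds as deposited, 6 with scan day as a random block, and 7 in the fit of all 14 groups. Chosen after seeing the data, the 14-group fit with a block gave 55 genes with scan day fixed, 40 with scan day random and 12 with slide random. Leaving out single arrays gave 0 to 4, with 4 without day 28 replicate 4 and 2 without day 1 replicate 1. For NRCWE-025 at 18 µg the count of 0 became 1 with scaled arrays and 3 in the 14-group fit, and 4, 5 and 3 with scan day fixed, scan day random and slide random in it, with 0 to 1 on leaving out arrays. For NRCWE-030 it became 1 with the scanner's log ratio, 2 in the 14-group fit, and 1 each with scan day or slide random in it, with 0 to 0 on leaving out arrays. The 3 genes whose effect of day differed between vehicle and 18 µg became 0 with the scanner's log ratio, 1 with scaled arrays, 2 with the probe of highest mean Cy5 signal, 5 with scan day fixed, 8 with scan day random, 5 with slide random and 7 in the 14-group fit. In that fit they became 25, 26 and 30 with scan day fixed, scan day random and slide random. Leaving out single arrays gave 1 to 11, with 11 without vehicle day 1 replicate 3, 7 without vehicle day 28 replicate 4, 5 without NRCWE-030 day 1 replicate 2 or 3, and 1 without vehicle day 28 replicate 3. The difference of Cd8a reversed to 0.0701 with the probe of highest mean Cy5 signal. The cause was not tested in any of these.

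No paired analysis was possible because the titles carry a running sample number and pair no mice across the days. Scan day, which 3 arrays of each day share, was fitted as a block instead, with 2 residual degrees of freedom in the vehicle comparison, and 0 genes were called. Slide as a random block could not be fitted in the vehicle and 18 µg comparisons alone, nor scan day as a block for NRCWE-025. Depth on arrays is signal over background, and 3067 genes had no probe well above background on any vehicle array, so their differences are limited by background. With 5 arrays a day, a difference that missed the threshold is not shown to be absent.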
